A study of Mus musculus with 11 samples.

Results

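The microRNA genes from Mir341 to Mir3072 lie inside the imprinted Dlk1-Dio3 domain on distal mouse chromosome 12, with the long miR-379 to miR-410 cluster at their core. They were taken by name from a table of small RNA levels: of 40 gene names of the region, 32 named a row, out of 3859 rows in the table. The first of the 32 starts at chr12:109611500 and the last ends at chr12:109747960 (GRCm38, GENCODE vM21), all on the plus strand. In that annotation 3 lie within the non-coding gene Rian, 12 within the non-coding gene Mirg and 17 between these genes. Of the 32, 31 had a mean of at least 10 FPKM over 11 libraries and were tested, and each of these was above 0 in all 11 libraries. The remaining gene, Mir453, was listed at 25 FPKM on day 7, about 1 read, and at 0 elsewhere.

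The study followed mouse embryonic fibroblasts (MEF) on their way to pluripotency. They carried the genotype Mbd3f/-, a floxed and a null allele of Mbd3, whose product belongs to the NuRD complex that remodels chromatin, and a doxycycline (DOX) inducible cassette of Oct4, Klf4, Sox2 and Myc. Small RNA was sequenced from MEF without DOX, from each of days 1 to 8 of DOX, from an established line of Mbd3f/- induced pluripotent stem cells (iPSC) and from embryonic stem cells (ESC), with 1 library for each of the 11 stages. The course started at low oxygen in a serum medium that held LIF and later moved to serum replacement and 2i, a pair of inhibitors against MEK and GSK3; iPSC and ESC were grown in 2i with LIF. Cells of days 3 to 8, iPSC and ESC grew on irradiated human foreskin fibroblasts as feeders, whereas MEF and days 1 and 2 did not. The labels give the ESC the genotype Mbd3f/-, but the column name in the table is that of V6.5, a line that the study also used as wild type, so the genotype of the ESC is uncertain. The iPSC are 1 line and the ESC are 1 line.

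By way of background, the Dlk1-Dio3 domain expresses its protein-coding genes Dlk1, Rtl1 and Dio3 from the paternal chromosome and its non-coding RNAs Meg3, Rian and Mirg from the maternal chromosome. The microRNAs are cut from the long maternal transcripts, so that many of them are made together. A microRNA gene is transcribed as a hairpin, from which short mature strands are cut, and the seed near the 5′ end of the mature strand pairs with target messages. The domain is known in reprogramming because its maternal RNAs are silent in some mouse iPSC lines, and in the brain and placenta because they are abundant there.

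To show what the genes encode, mature sequences were taken from RefSeq (GRCm38.p6), which held 55 mature strands for 30 of the 32 genes, all but Mir666 and Mir544. The capitals mark the seed, bases 2 to 8. The deposited table gives 1 level per hairpin gene and does not divide it between the 5p and 3p strands. Shown first are the strands of the 10 genes with the highest mean FPKM whose seed no other strand of the region carried, since these genes supplied most of the reads described below.
miR-541-5p: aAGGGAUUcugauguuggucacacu
miR-541-3p: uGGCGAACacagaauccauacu
miR-410-3p: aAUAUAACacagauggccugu
miR-411-5p: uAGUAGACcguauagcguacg
miR-341-5p: cGGUCGGCcgaucgcucgguc
miR-341-3p: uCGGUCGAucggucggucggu
miR-134-5p: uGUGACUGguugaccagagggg
miR-134-3p: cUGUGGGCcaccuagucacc
miR-758-3p: uUUGUGACcugguccacua
miR-382-5p: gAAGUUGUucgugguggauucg
miR-382-3p: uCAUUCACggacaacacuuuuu
miR-369-5p: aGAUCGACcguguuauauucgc
miR-369-3p: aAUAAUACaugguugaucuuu
miR-679-5p: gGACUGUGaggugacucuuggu
miR-679-3p: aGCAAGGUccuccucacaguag

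The 55 strands carried 49 seeds. Of these, 6 seeds were shared, each by 2 strands of the region and by no other mouse strand in RefSeq's table. The shared pairs are shown because strands with the same seed can pair with the same target sites.
miR-379-5p: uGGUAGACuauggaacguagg
miR-1193-5p: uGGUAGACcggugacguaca
miR-379-3p: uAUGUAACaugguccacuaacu
miR-411-3p: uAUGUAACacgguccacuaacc
miR-370-5p: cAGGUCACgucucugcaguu
miR-1193-3p: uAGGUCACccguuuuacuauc
miR-1197-5p: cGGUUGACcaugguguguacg
miR-758-5p: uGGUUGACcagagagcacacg
miR-453: aGGUUGCCucauagugagcuugca
miR-496a-5p: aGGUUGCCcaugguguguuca
miR-494-5p: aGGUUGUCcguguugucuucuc
miR-410-5p: aGGUUGUCugugaugaguucg

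Several hairpins also open with the same letters. Among all patterns of 5 bases, 2 free bases and 4 bases, ACUUGNNGAGA, where N is any base, was held by the most hairpins of the region. The shape of the pattern was chosen after the sequences were seen, and its letters were picked from these same hairpins. A higher share in the region than elsewhere therefore follows in part from that choice and is no test of enrichment. Searched on both strands of each RefSeq hairpin, it was present in 6 of 30 hairpins of the region (20%) and in 1 of 975 other mouse hairpins (0.103%), that of Mir300, which lies in the same cluster under another row name. The 6 hairpins follow with the motif in capitals. They differed in their levels: Mir411 and Mir382 fell over the course, Mir539 was the 1 gene with a higher level from day 3, and Mir410, Mir323 and Mir485 did not pass either test. Mir411 lies at chr12:109710175-109710256, Mir323 at chr12:109712508-109712593, Mir539 at chr12:109728129-109728202, Mir382 at chr12:109733771-109733846, Mir485 at chr12:109734902-109734974 and Mir410 at chr12:109743715-109743795.
Mir411: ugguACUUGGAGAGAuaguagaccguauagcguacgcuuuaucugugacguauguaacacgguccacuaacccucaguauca
Mir323: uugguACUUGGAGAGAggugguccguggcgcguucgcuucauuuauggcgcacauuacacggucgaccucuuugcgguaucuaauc
Mir539: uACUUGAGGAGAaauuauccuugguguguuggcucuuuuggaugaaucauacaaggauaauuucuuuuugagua
Mir382: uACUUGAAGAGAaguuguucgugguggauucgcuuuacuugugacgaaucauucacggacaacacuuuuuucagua
Mir485: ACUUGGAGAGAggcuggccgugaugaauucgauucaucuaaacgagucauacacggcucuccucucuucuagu
Mir410: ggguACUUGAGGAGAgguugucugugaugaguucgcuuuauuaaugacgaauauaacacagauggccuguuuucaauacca

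The level of each gene is an FPKM value, fragments scaled to the transcript's length and to the mapped fragments of the library, as deposited by the authors. Reads were recovered from the steps between low FPKM values, and the implied mapped reads ranged from 11600000 in MEF to 21900000 on day 7. The table as a whole held 44.9% to 59.2% of the implied mapped reads in 9 libraries, but 22.7% on day 7 and 27.7% on day 8, so these libraries stood apart, and results that rest on them are also given without them. A single read of an 80 nt gene came to 26.3 FPKM on day 7, the deepest library, and to 49.7 FPKM in MEF, the shallowest. Of the microRNAs that mark pluripotent cells, 11 of 11 rose over the course and their summed level was 21449 FPKM in MEF and 17739271 FPKM in ESC. Of those that mark fibroblasts, 6 of 8 fell, and their summed level was 64056997 FPKM in MEF, 13010237 FPKM on day 8, 10200727 FPKM in iPSC and 30441880 FPKM in ESC. Mir143, a fibroblast marker, was listed at 0 in MEF, and Mir295, a pluripotent marker, was listed at 0 in iPSC and ESC although it was abundant from day 2.

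The region was most prominent in MEF and least prominent on day 8. Its 32 genes took 10.7% of all recovered small RNA reads in MEF, 4.89% on day 1, 5.10% on day 2, 3.90% on day 3, 5.49% on day 4, 5.35% on day 5, 5.30% on day 6, 2.84% on day 7, 1.49% on day 8, 3.19% in iPSC and 3.82% in ESC. MEF was therefore the highest library and day 8 the lowest, with days 1 to 6 close together between them. A single gene, Mir541, supplied 73.2% of the region's reads over all libraries, from 53.7% on day 8 to 79.2% on day 1, and Mir410 supplied a further 11.3%. Without Mir541 the share was 2.67% in MEF, 1.02% to 1.61% on days 1 to 6, 0.892% on day 7, 0.692% on day 8, 0.949% in iPSC and 0.924% in ESC. The order of MEF above all other libraries and of day 8 below them held with and without Mir541. Abundant transcripts listed at 0 in a library, such as Mir143 and Mir127 in MEF, are missing from that library's total. In whole tissue or culture samples such as these, fewer cells of a type and less RNA per cell cannot be told apart.

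**Figure D1:**
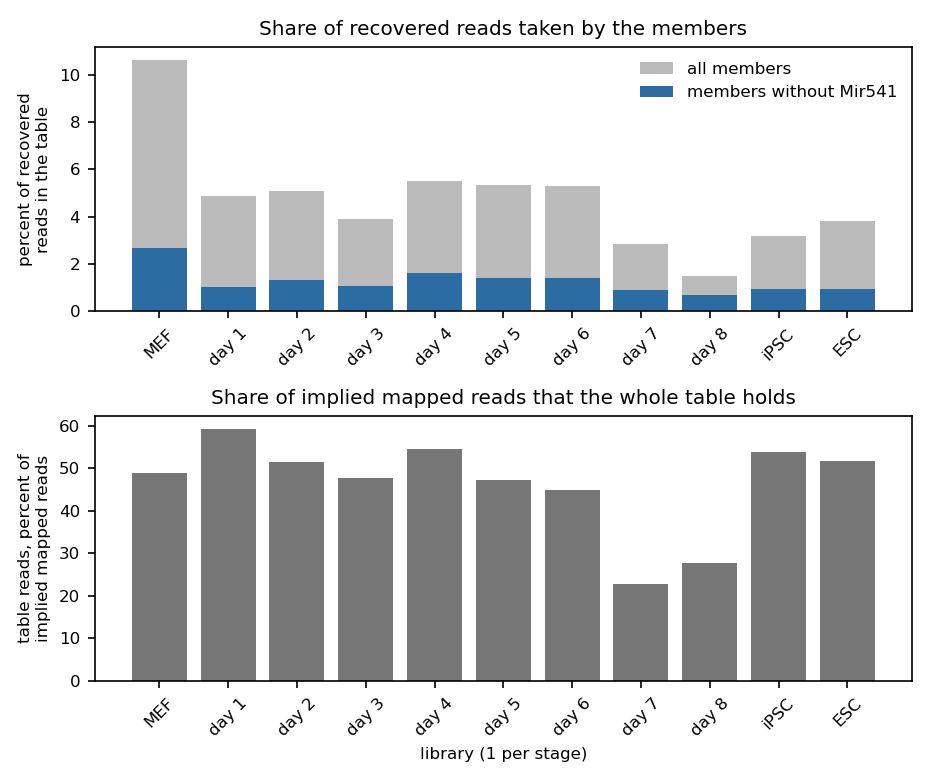
The upper panel plots, for each of 11 libraries, the percentage of recovered reads in the table that came from the region (grey) and from the region without Mir541 (blue); the lower panel plots the table's reads as a percentage of implied mapped reads. MEF stands highest at 10.7% and day 8 lowest at 1.49%, and the lower panel shows 22.7% for day 7 and 27.7% for day 8.

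Per length, Mir541 had the highest mean FPKM of the region, 6891256 over the 11 libraries. Its hairpin lies at chr12:109742409-109742498 within Mirg, and miR-541 has been described as a brain microRNA that restrains neurite growth. It was at 15936300 FPKM in MEF, 9361680 on day 1, 7898880 on day 2, 5469390 on day 3, 8659760 on day 4, 7583750 on day 5, 7167250 on day 6, 1805010 on day 7, 905984 on day 8, 4915720 in iPSC and 6100090 in ESC. MEF was the highest and day 8 the lowest, and both lines lay within the range of days 2 to 8. Mir410, the last gene of the core cluster and one known to act on insulin secretion, came next at a mean of 1424264 FPKM. It was at 3083760 FPKM in MEF, 1433070 on day 1, 1805260 on day 2, 1083360 on day 3, 1921790 on day 4, 1570070 on day 5, 1413390 on day 6, 452167 on day 7, 457621 on day 8, 1315320 in iPSC and 1131100 in ESC. Days 7 and 8 were alike and were the lowest libraries, and MEF was again the highest. Effective length enters FPKM strongly in transcripts this short, so the order of genes is less certain than the order of libraries within a gene.

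The course from MEF to day 8 was tested as a slope per day on log2(FPKM + 10) across 9 libraries, with MEF placed at day 0. Of the 31 genes, 10 fell and none rose at an adjusted p under 0.05 in limma's two-sided test over 1419 transcripts. Over all 1419 transcripts 10.6% fell and 12.5% rose, and among 883 microRNA transcripts tested alone 17.7% fell, with 12 of the 31 genes called. The genes that fell were Mir1188, Mir667, Mir679, Mir541, Mir1193, Mir496, Mir382, Mir411, Mir329 and Mir666. The slope was below 0 for 30 of 31 genes, against 44.9% of all transcripts, and its median was -0.23 log2 units per day against 0.02 over all transcripts. Each stage has 1 library, so these p-values measure scatter around a line over days, not the spread between cultures.

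The calls rested in large part on days 7 and 8, the libraries in which the table held the smallest share of mapped reads. Without both days none of the 31 genes fell, with 4.86% of all transcripts called lower, the median slope was -0.05 against 0.13 over all transcripts, and 1 gene, Mir758, was called higher. On days 3 to 8 alone 1 gene fell, Mir667, with 5.64% of all transcripts called lower, and the median slope was -0.36 against -0.10. Leaving out 1 library at a time left 2 to 11 of the genes called lower. There were 2 without day 8, where 6.91% of all transcripts were called lower, 4 without day 7 (6.84%) and 5 without MEF (12.0%). The count of 2 without day 8 is near that background. Only Mir496 and Mir667 fell in all 9 of these fits, and Mir1193 in 1 of them. The part of the share of mapped reads in these results was not tested.

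**Figure D2:**
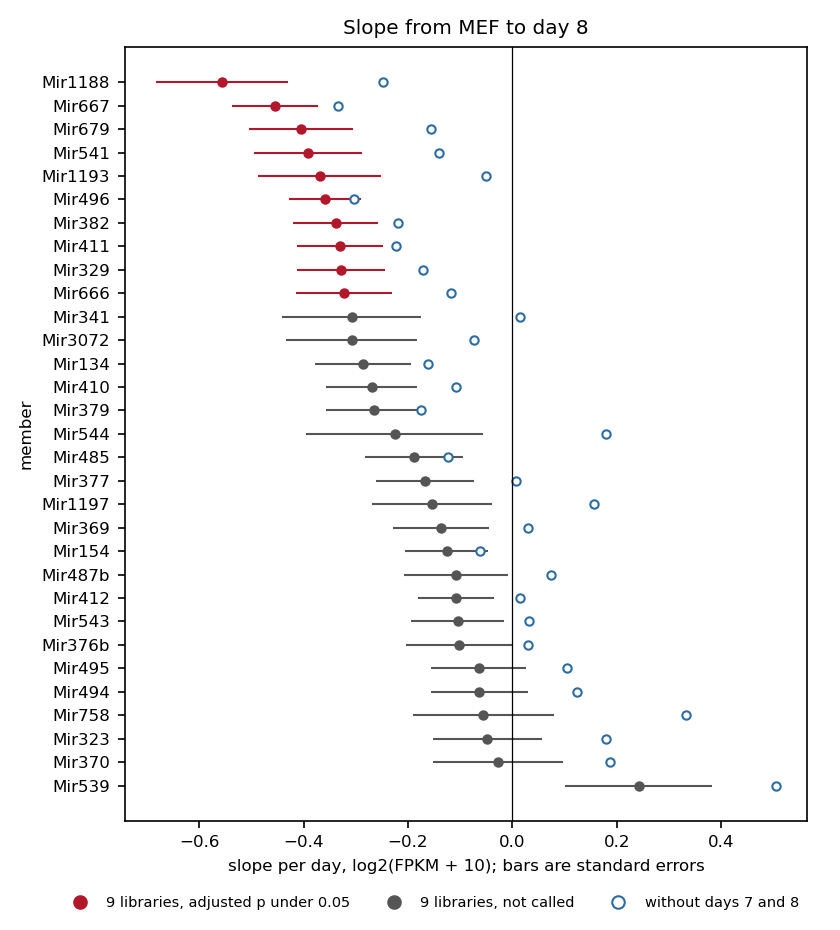
Slopes per day on log2(FPKM + 10) for the 31 tested genes over MEF and days 1 to 8, with standard errors as bars; red points are the 10 genes called lower, grey points were not called and open blue points are slopes without days 7 and 8. Of the filled points 30 lie below 0, and most open points lie closer to 0 or above it.

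Within Rian, 1 of 3 genes fell. Mir1188 was at 1094 FPKM in MEF, 339 on day 1, 458 on day 2, 372 on day 3, 462 on day 4, 229 on day 5, 276 on day 6, 15.5 on day 7, 24.7 on day 8, 239 in iPSC and 28.5 in ESC. The low values rest on few reads, 2 on day 7 and 3 each on day 8 and in ESC. Its slope was -0.56 ± 0.13 log2 units per day (SE, n = 9 libraries, adjusted p = 0.0147 by limma). MEF was 44.4 times day 8, with an exact 95% interval of 14.6 to 220.2 that covers counting error only. Without day 8 the gene was not called (adjusted p = 0.0612 by limma). Mir341, the Rian gene with the highest mean FPKM, which is found in rodents, was at 308794 FPKM in MEF, 109342 on day 1, 273210 on day 2, 202522 on day 3, 460961 on day 4, 245269 on day 5, 165808 on day 6, 37714 on day 7, 34154 on day 8, 171514 in iPSC and 183978 in ESC. Its peak was on day 4 rather than in MEF, and its slope of -0.31 ± 0.13 was not called (SE, n = 9 libraries, adjusted p = 0.128 by limma).

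Between Rian and Mirg, 6 of 17 genes fell. Mir379, which opens the core cluster at chr12:109709060-109709125, was at 1194080 FPKM in MEF, 411991 on day 1, 363372 on day 2, 266579 on day 3, 508265 on day 4, 280995 on day 5, 447146 on day 6, 162809 on day 7, 134280 on day 8, 214768 in iPSC and 319967 in ESC. MEF was more than 2 times every other library, and the slope of -0.27 ± 0.09 was not called (SE, n = 9 libraries, adjusted p = 0.0612 by limma). Mir411, whose 3p strand has the seed of miR-379-3p, was at 973688 FPKM in MEF, 444312 on day 1, 369659 on day 2, 246511 on day 3, 423150 on day 4, 311144 on day 5, 280565 on day 6, 106575 on day 7, 99380 on day 8, 163610 in iPSC and 214976 in ESC. Its libraries stood in an order close to that of Mir379, and here the slope of -0.33 ± 0.08 was called (SE, n = 9 libraries, adjusted p = 0.0196 by limma), though not without MEF, day 7 or day 8. Mir1193, which shares the other Mir379 seed, was at 16582 FPKM in MEF, 10440 on day 1, 12226 on day 2, 16854 on day 3, 11296 on day 4, 11005 on day 5, 11924 on day 6, 1671 on day 7, 1578 on day 8, 5081 in iPSC and 3269 in ESC. It stayed between 10440 and 16854 FPKM from MEF to day 6 and was low on days 7 and 8, and its slope was -0.37 ± 0.12 (SE, n = 9 libraries, adjusted p = 0.0485 by limma).

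Mir667 fell in every fit that left out 1 library. It was at 49575 FPKM in MEF, 43932 on day 1, 15468 on day 2, 27135 on day 3, 19780 on day 4, 16433 on day 5, 10182 on day 6, 3939 on day 7, 3744 on day 8, 11250 in iPSC and 3446 in ESC. The level was lower from day 2 onward than in MEF and on day 1, and lower again on the last days. The slope was -0.45 ± 0.08 (SE, n = 9 libraries, adjusted p = 0.00496 by limma), and without days 7 and 8 it was -0.33 (adjusted p = 0.0747 by limma).

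The others that fell here were Mir329, Mir679 and Mir666. Mir329, one of the genes of the cluster induced by neuronal activity, was at 72017 FPKM in MEF, 51495 on day 1, 31448 on day 2, 25093 on day 3, 38167 on day 4, 29943 on day 5, 31839 on day 6, 11338 on day 7, 7024 on day 8, 20980 in iPSC and 14204 in ESC. Mir679 was at 136376 FPKM in MEF, 94822 on day 1, 149506 on day 2, 84685 on day 3, 75391 on day 4, 83145 on day 5, 68342 on day 6, 19485 on day 7, 9875 on day 8, 69560 in iPSC and 52999 in ESC. Mir666 was at 117033 FPKM in MEF, 63922 on day 1, 60500 on day 2, 56290 on day 3, 73306 on day 4, 49487 on day 5, 61261 on day 6, 14745 on day 7, 12669 on day 8, 76326 in iPSC and 40509 in ESC. All 3 were lowest on day 8, and Mir679 alone among them was higher on day 2 than in MEF. Their slopes were -0.33 ± 0.08 for Mir329 (adjusted p = 0.0230 by limma), -0.40 ± 0.10 for Mir679 (adjusted p = 0.0196) and -0.32 ± 0.09 for Mir666 (adjusted p = 0.0326), each with its SE over 9 libraries. None of these calls remained without day 7 or without day 8, and those of Mir329 and Mir666 were also lost without MEF.

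Mir758 ran another way until day 6. It was at 58959 FPKM in MEF, 46294 on day 1, 70471 on day 2, 102296 on day 3, 151220 on day 4, 172211 on day 5, 164945 on day 6, 33396 on day 7, 24326 on day 8, 156239 in iPSC and 127562 in ESC. Days 2 to 6 and both lines were above MEF, and days 1, 7 and 8 were below it. Over all 9 libraries the slope was -0.06 ± 0.13 (SE, adjusted p = 0.837 by limma). Without days 7 and 8 it was 0.33 and was called higher (adjusted p = 0.0406 by limma), so its direction depends on those libraries.

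Within Mirg, 3 of 11 tested genes fell: Mir541, Mir382 and Mir496. The slope of Mir541, whose levels are given above, was -0.39 ± 0.10 (SE, n = 9 libraries, adjusted p = 0.0251 by limma), and the call was lost without MEF, without day 7 or without day 8. Mir382 was at 192727 FPKM in MEF, 214339 on day 1, 109176 on day 2, 74384 on day 3, 131964 on day 4, 99521 on day 5, 73440 on day 6, 27179 on day 7, 30401 on day 8, 55168 in iPSC and 71439 in ESC. It was the 1 gene of the 31 tested that was higher on day 1 than in MEF. Its slope was -0.34 ± 0.08 (SE, n = 9 libraries, adjusted p = 0.0181 by limma), a call lost without day 8. Mir496 was at 43595 FPKM in MEF, 22764 on day 1, 24190 on day 2, 15957 on day 3, 14293 on day 4, 9536 on day 5, 13009 on day 6, 6587 on day 7, 4100 on day 8, 8056 in iPSC and 4606 in ESC. MEF was the highest and day 8 the lowest, and most days were lower than the day before, and the slope was -0.36 ± 0.07 (SE, n = 9 libraries, adjusted p = 0.00657 by limma). It fell in all 9 fits that left out 1 library, and without days 7 and 8 the slope was -0.30 (adjusted p = 0.0647 by limma).

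Other abundant Mirg genes had slopes that were not called. Mir134, known for limiting dendritic spine size in neurons and reported to target pluripotency factors in differentiating ESC, was at 526108 FPKM in MEF, 144882 on day 1, 215464 on day 2, 144909 on day 3, 271188 on day 4, 161114 on day 5, 159537 on day 6, 62479 on day 7, 56909 on day 8, 107216 in iPSC and 100201 in ESC. Mir369, whose mature strand has been used in a microRNA mixture for reprogramming, was at 151834 FPKM in MEF, 75576 on day 1, 70509 on day 2, 70198 on day 3, 152517 on day 4, 112002 on day 5, 110288 on day 6, 40887 on day 7, 41347 on day 8, 66220 in iPSC and 63745 in ESC. Mir134 was highest in MEF alone, whereas Mir369 reached the MEF level again on day 4, and both were lowest on days 7 and 8. The slopes were -0.29 ± 0.09 for Mir134 (adjusted p = 0.0501 by limma), -0.14 ± 0.09 for Mir369 (adjusted p = 0.341) and -0.27 ± 0.09 for Mir410 (adjusted p = 0.0525), each with its SE over 9 libraries.

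The remaining 14 tested genes were Mir370, Mir1197, Mir323, Mir494, Mir543, Mir495, Mir376b, Mir487b, Mir544, Mir485, Mir154, Mir377, Mir412 and Mir3072. No slope among them was called. They ran from -0.31 in Mir3072 (adjusted p = 0.110 by limma) to -0.03 in Mir370 (adjusted p = 0.926). Their levels ran from 60.3 FPKM in Mir544 on day 8, which is 2 reads, to 156837 FPKM in Mir485 in MEF.

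The slopes of hairpins that share a seed can be set side by side. Mir370 and Mir1193, with the seed AGGUCAC, had -0.03 and -0.37 log2 units per day, Mir494 and Mir410, with GGUUGUC, had -0.06 and -0.27, and Mir1197 and Mir758, with GGUUGAC, had -0.15 and -0.06. Mir379 had -0.27, and the genes that each share a seed with it had -0.33 in Mir411 and -0.37 in Mir1193. Mir496, which fell, shares GGUUGCC with Mir453, which was listed at 0 in 10 of 11 libraries. Differences between genes were not tested.

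Stage by stage, the region was lower on day 1 than in MEF and lower on day 7 than on day 6, with smaller movements between. From MEF to day 1, 30 of 31 genes were lower, against 29.0% of all transcripts, with a median of -0.98 log2 units against 0.41 over all transcripts, and 31 were lower when libraries were scaled by median ratios. From day 6 to day 7, 31 of 31 genes were lower, against 72.2% of all transcripts, with a median of -1.49 against -0.86, and with that scaling 29 were lower, with a median of -0.48. In between, 18 of 31 were higher on day 3 than on day 2 (40.9% of all transcripts, median 0.24), by up to 3.34 in Mir539. Then 23 of 31 were higher on day 4 than on day 3 (58.3% of all transcripts, median 0.59) and 26 were lower on day 5 than on day 4 (57.0%), but with median-ratio scaling only 16 were lower and 15 higher. From day 7 to day 8, 21 were lower, against 24.2% of all transcripts, with a median of -0.13 against 0.36, and with that scaling 30 were lower, with a median of -0.67. These are differences between single libraries and have no test. The shares are over small RNAs of all classes, low ones included, and were not computed among microRNAs alone. MEF was the highest library for 18 genes, and day 7 or day 8 was the lowest for 26. The ratio of MEF to day 8 had a median of 6.37 over the 31 genes and ran from 0.505 in Mir539 to 44.4 in Mir1188. The shares of all transcripts with these extremes and their median ratio were not computed. These counts and this median are therefore no trait set apart from the whole table.

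**Figure D3:**
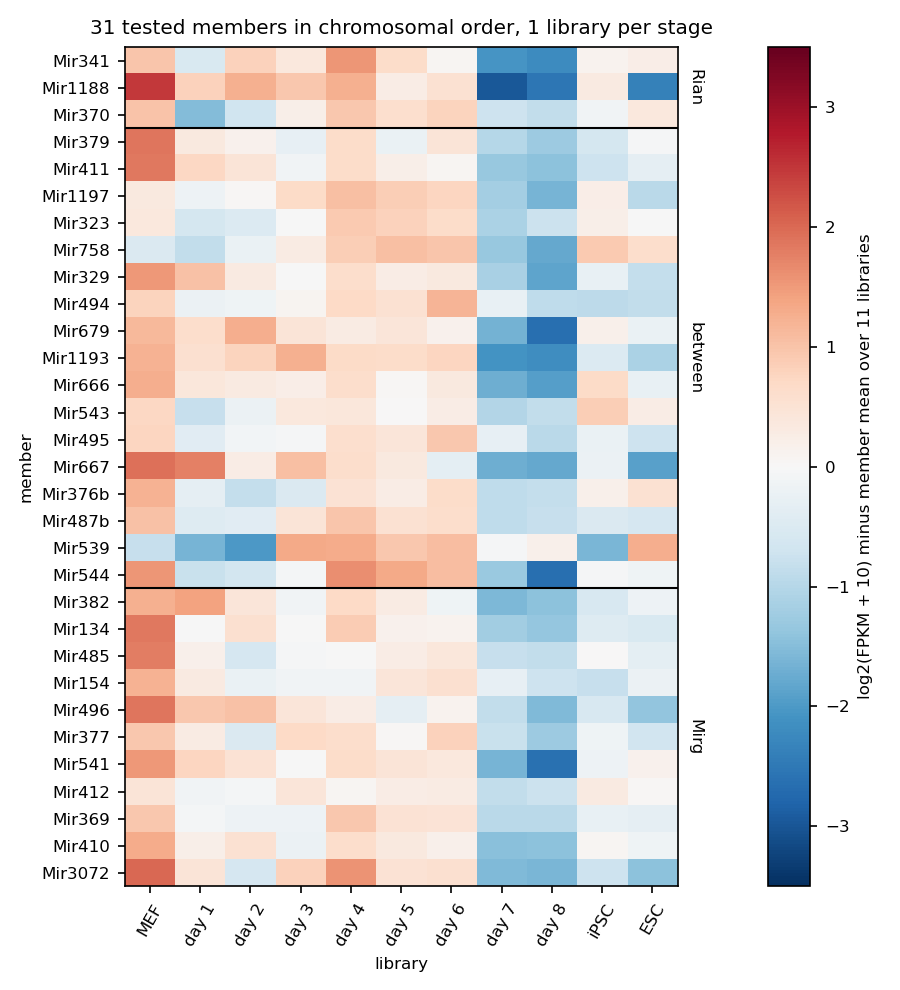
Colours give log2(FPKM + 10) of each of the 31 tested genes minus its own mean over 11 libraries, with genes in chromosomal order from Mir341 to Mir3072 and lines that divide those in Rian, between the host genes and in Mirg. The MEF column is above the mean for most genes, the day 7 and day 8 columns are below it, and Mir539 has a pattern of its own.

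On the deposited scale most genes were lower on day 8 than in the established lines. Of 31 genes, 28 were lower on day 8 than in iPSC, against 58.8% of all transcripts, with a median of -0.99 against -0.61. For ESC the count was 30, against 59.1%, with a median of -1.01 against -0.46. With median-ratio scaling 22 genes were lower than in iPSC, with a median of -0.19, and 19 lower than in ESC, with a median of -0.33. The difference therefore depends on the scale, and the share of all transcripts on that scale was not computed.

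The exception to the common pattern was Mir539, at chr12:109728129-109728202 between Rian and Mirg. It was at 5467 FPKM in MEF, 3116 on day 1, 2375 on day 2, 24196 on day 3, 23752 on day 4, 18604 on day 5, 20414 on day 6, 9380 on day 7, 10820 on day 8, 3153 in iPSC and 23119 in ESC. All of days 3 to 8 were above all of MEF and days 1 and 2, with iPSC at the level of the early stages and ESC at that of days 3 to 6. These levels rest on 45 to 88 reads in MEF, days 1 and 2, 65 reads in iPSC and 286 to 660 reads on days 3 to 8. Day 3 was 10.2 times day 2, and ESC was 7.33 times iPSC.

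A step was tested as the mean of days 3 to 8 minus that of MEF and days 1 and 2. Mir539 was the 1 gene of 31 that was higher, by 2.28 ± 0.51 log2 units (SE, n = 9 libraries, adjusted p = 0.0307 by limma), and none was lower. Over all transcripts 7.61% were higher and 3.66% lower. The call was lost without MEF, day 1, day 5 or day 6, where the step was 2.21 to 2.62, and over all 9 such fits the adjusted p ran from 0.0267 to 0.117 by limma. It was also lost with a slope in the same fit, where the step was 3.68 (adjusted p = 0.0866 by limma). The median step of the 31 genes was -0.57 against 0.26 over all transcripts, and 1.13 against 0.39 with a slope in the same fit. Day 3 is the first stage on human feeders, and feeders, medium and time cannot be told apart in this design.

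Other small RNAs of the domain divided the libraries in a similar way. Over the 11 libraries, the correlation of log2 levels with Mir539 was 0.93 for Mir654, 0.90 for Gm24899 and 0.90 for Mir493, where the points share libraries and depth and the 3 were looked for after the values were seen. Mir654 was at 130 FPKM in MEF, 241 on day 1, 147 on day 2, 297835 on day 3, 275908 on day 4, 206776 on day 5, 191171 on day 6, 107241 on day 7, 146698 on day 8, 67.5 in iPSC and 164921 in ESC. Mir493 was at 38342 FPKM in MEF, 21071 on day 1, 26791 on day 2, 94474 on day 3, 117938 on day 4, 94192 on day 5, 68038 on day 6, 47379 on day 7, 61651 on day 8, 10339 in iPSC and 60731 in ESC. Gm24899, a small nucleolar RNA, was listed at 0 in MEF and on days 1 and 2, at 3437 to 29241 FPKM on days 3 to 8, at 50.4 FPKM in iPSC and at 14177 FPKM in ESC. All of them were higher on every feeder stage of the course and in ESC than in MEF, on days 1 and 2 or in iPSC, which the labels also place on feeders. Of the fibroblast markers, 5 of 8 were at least 4-fold lower in iPSC than in ESC, and the sums of all 8 were 10200727 and 30441880 FPKM. Their sum was 64056997 FPKM in MEF, where Mir143 is listed at 0, 70032176 FPKM on day 2 and 48409612 FPKM on day 3. Single markers went different ways. Mir10b, Mir21 and Mir143 were lower on day 3 than on day 2, whereas Mir145, Mir214, Mir199a-1, Mir199a-2 and Mir199b were higher. The part of feeder RNA in the level of Mir539 was not tested.

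**Figure D4:**
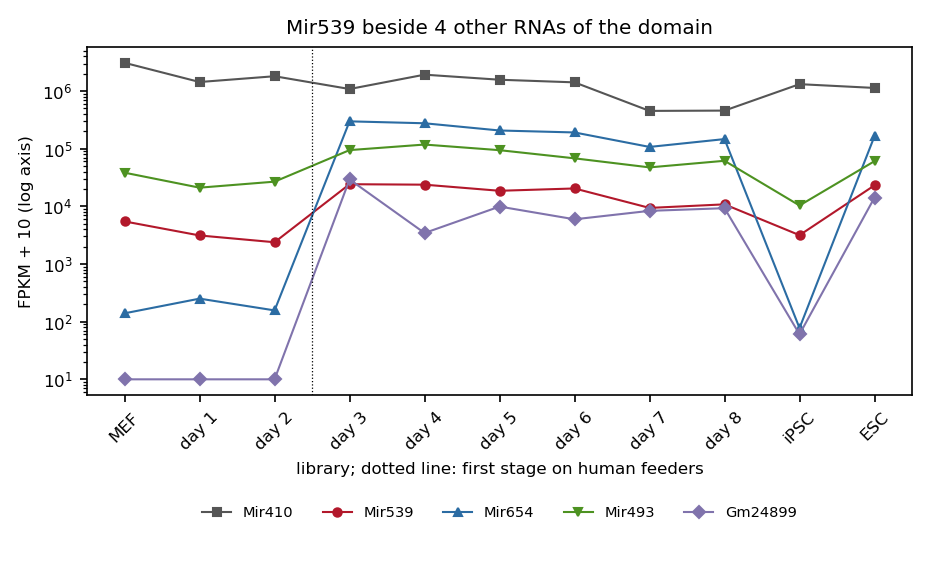
FPKM + 10 on a log axis in each of 11 libraries for Mir539, for Mir410 as an abundant gene of the same cluster, and for Mir654, Mir493 and Gm24899; the dotted line stands before day 3. Mir539 goes from 2375 FPKM on day 2 to 24196 on day 3 and is at 3153 in iPSC, whereas Mir410 has no such step.

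The established lines were compared to see how far the region differed between iPSC and ESC. Most genes were at similar levels. Of 31 genes, 27 were within 2-fold, 21 were higher in iPSC and 10 lower, and the median difference, iPSC minus ESC, was 0.23 log2 units against 0.15 over all transcripts. With median-ratio scaling 13 were lower in iPSC, and the median was 0.11 against 0.05. The shares of all transcripts within 2-fold or higher in iPSC were not computed. A difference of at least 4-fold was found for 2 genes, against 18.0% of all transcripts. With 1 library per line there is no test and no replicate check.

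The 2 genes went in opposite directions. Mir539 was at 3153 FPKM in iPSC and 23119 in ESC, a difference of -2.87. Mir654, Mir493 and Gm24899 were also lower in iPSC, as given above, and the part of feeder RNA in this difference was not tested. Mir1188 was at 239 FPKM in iPSC and 28.5 in ESC, a difference of 2.69 that rests on 21 and 3 reads, for which the ratio of 8.39 has an exact 95% interval of 2.50 to 43.9 from counting error alone. With a pseudocount of 50 FPKM only Mir539 was 4-fold apart. Among the other tested genes, the lowest differences were -0.60 in Mir154 and -0.58 in Mir379, and the highest were 1.70 in Mir667 and 1.20 in Mir1197. On rows that hold hairpins of the region under other names, described below, the difference was -1.25 in mmu-mir-381 and 1.51 in mmu-mir-668. The rest of those rows ran from -0.66 in Gm25400 to 0.88 in Gm25750. The most abundant genes differed little, with -0.31 in Mir541 and 0.22 in Mir410.

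**Figure D5:**
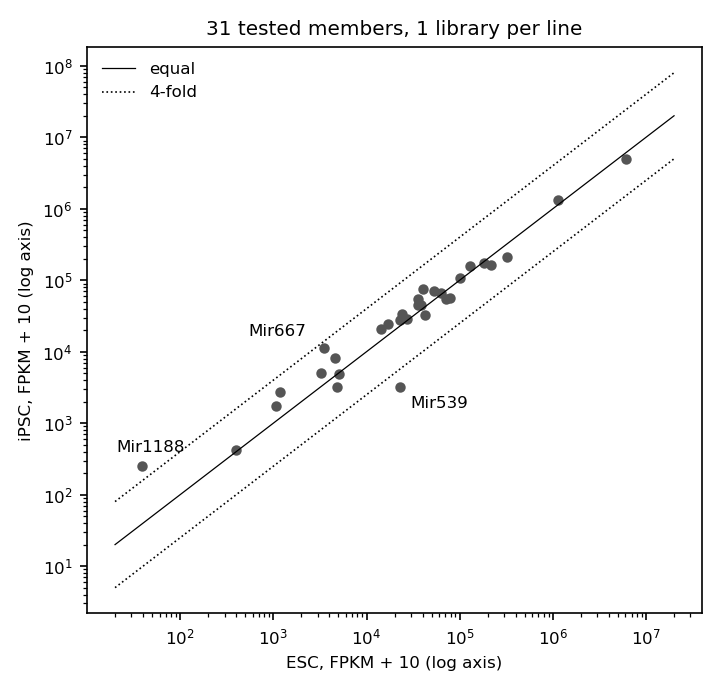
FPKM + 10 in the iPSC library against the ESC library, both on log axes, for the 31 tested genes; the solid line is equality and the dotted lines are 4-fold. Mir539 lies below the lower dotted line and Mir1188 above the upper one, and 27 genes are within 2-fold.

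Against MEF, the lines were lower for most of the region. In both iPSC and ESC 28 of 31 genes were below MEF, against 22.3% of all transcripts, and the exceptions were Mir758, Mir543 and Mir539. Of the 31, 6 were at least 4-fold lower in both lines: Mir1188, Mir411, Mir667, Mir134, Mir496 and Mir3072, against 7.75% of all transcripts. None was at least 4-fold higher in both, against 29.7% of all transcripts. All transcripts here include small RNAs of other classes and low ones, since the filter of 10 FPKM lies below 1 read of an 80 nt gene. The shares are therefore not of transcripts like these genes. For these differences they were not computed among microRNAs alone. The median difference from MEF was -1.53 log2 units in iPSC and -1.49 in ESC, against 1.36 and 0.98 over all transcripts. The scale matters here. Median-ratio scaling divides each library by a factor, with a log2 of -0.87 for MEF, 0.60 for iPSC and 0.48 for ESC. It therefore raises MEF and lowers both lines. With it the medians of the region were -3.0 in iPSC and -2.84 in ESC, against 0.08 and 0.00 over all transcripts. On that scale 24 genes were at least 4-fold lower in both lines, with 15.7% of all transcripts past the same fold. With quantile normalization the count was 19, with 15.6% of all transcripts.

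Across the 11 libraries most genes followed one profile. The Pearson correlation of a gene's log2 level with the mean of the other tested genes of the region was highest in Mir369 (0.95), Mir410 (0.93) and Mir134 (0.93), and lowest in Mir758 (0.58) and Mir539 (0.02). All points share libraries and depth, and the correlations are a description. Outside the domain, the 5 transcripts with the most similar profile were Mir1249 (0.89), Mir1251 (0.89), mmu-mir-378c (0.87), Mir674 (0.85) and Mir342 (0.85). Mir342 lies on chromosome 12 before Dlk1, at chr12:108658620-108658718, and the others lie on other chromosomes.

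Other small RNAs between Dlk1 and Dio3 filled 50 rows, of which 44 were tested. Of these, 7 lie on hairpins of the region under other names, as described below. Among the 44, the slope was called higher for 2, Mir654 and Gm24899. It was lower for 3, the small nucleolar RNA Gm25854 and the microRNAs mmu-mir-300 and mmu-mir-668, which both lie on such hairpins. The step at day 3 was called higher for Mir654 and Gm24899 and lower for Gm25854, against 7.61% higher and 3.66% lower over all transcripts. By class, the slope was called for 0 of 5 tested microRNAs antisense to Rtl1 and for 2 of 20 small nucleolar RNAs, 1 higher and 1 lower. Of 19 remaining microRNAs 3 were called, 1 higher and 2 lower. Over all transcripts 12.5% were called higher and 10.6% lower. In MEF and on day 4 the table lists 0 for the 5 antisense microRNAs, which were abundant in the other libraries, such as Mir127 at 20991000 FPKM on day 1, so their slopes rest on those values and say nothing of their course. With such values of the most abundant ones set to missing, Mir127 fell, with a slope of -0.34 ± 0.10 (SE, 7 libraries left, adjusted p = 0.0427 by limma), and Mir434 and Mir136 were not called. Between iPSC and ESC, 6 of the 44 were at least 4-fold apart, against 18.0% of all transcripts. Mir654, Mir493 and Gm24899 were lower in iPSC, as was Gm23347, at 0 FPKM in iPSC and 30.2 in ESC. Gm23912, at 30.4 FPKM in iPSC and 0 in ESC, and Mir3070b, at 56.9 and 0 FPKM, were higher. A single read of an 80 nt gene came to 38.7 FPKM in iPSC and 32.3 in ESC. The differences of Gm23347, Gm23912 and Mir3070b therefore rest on very few reads.

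The 8 names of the region without a row were Mir299, Mir380, Mir376a, Mir376c, Mir300, Mir381, Mir668 and Mir409. Their hairpins overlap rows that carry other names. The row named Mir376b has a gene identifier that GENCODE vM21 gives to Mir376c, at chr12:109722718-109722803, so its reads are reported under the deposited name. The hairpins of Mir300, Mir381 and Mir668 lie on the rows mmu-mir-300, mmu-mir-381 and mmu-mir-668, and those of Mir299, Mir380, Mir376a and Mir409 lie opposite the annotated strand of Gm25400, Gm25750, Gm25252 and Gm24321. The strand used in counting is not given in the sources used here, so reads of the hairpin and of its antisense row cannot be told apart. Of these 7 rows 2 fell, mmu-mir-668 with a slope of -0.52 ± 0.07 (SE, n = 9 libraries, adjusted p = 0.0014 by limma) and mmu-mir-300 with -0.33 ± 0.08 (adjusted p = 0.0204 by limma), and their median slope was -0.25. The highest of them, Gm24321, was at 2023210 FPKM in MEF, 1364660 on day 1, 2415910 on day 2, 1969740 on day 3, 1866390 on day 4, 2438770 on day 5, 1802190 on day 6, 698738 on day 7, 619349 on day 8, 1410480 in iPSC and 1449860 in ESC, so that days 2 and 5 were above MEF and days 7 and 8 were the lowest. With these rows added, the region held 12.1% of recovered reads in MEF and 2.11% on day 8.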

How the data were processed

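Small RNA libraries (TruSeq small RNA kit, size-selected on a gel, per the labels' protocols) were sequenced from 11 stages, 1 library each. The authors deposited 1 table of FPKM values. Per the submitters' processing notes, the tools were Cufflinks 2.2.1, Bowtie2 2 and CASAVA 1.8.2 on mm10. Their annotation, the strand counted and the treatment of reads with several matches were not given in the sources used here. Members and lists were chosen with earlier results of these data known. Named in full are the 10 members of highest mean FPKM and those called by a test, and for the lines the 3 highest and 3 lowest. Values were analysed as log2(FPKM + 10), which understates changes of low transcripts, over transcripts with a mean of at least 10 FPKM. Of these, 883 were microRNAs, so shares over all transcripts are of a mixed set. Slopes and steps were fitted in limma 3.58.1 (R 4.3.3; 7 residual degrees of freedom) with Benjamini-Hochberg adjustment over 1419 transcripts, and tested on simulated data. Reads were recovered from FPKM steps with an assumed fragment length of 200 ± 80 nt. Of 4812 low values 91.1% were whole within 0.05 read, though the steps were set on such values. No count test was run. Alternatives were pseudocounts of 1 and 50, filters, scalings, subsets of stages and libraries left out. Intervals cover counting error only.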

Additional observations from a re-analysis of the deposited data

How the results depend on the processing

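For members of the region, 10 genes fell in the slope. The number was 0 without days 7 and 8, 1 on days 3 to 8 alone and 2 to 11 with 1 library left out; the number that rose was 0, or 1 without days 7 and 8, where the slope of Mir758 turned to 0.33. The step was called higher for 1 gene, for 0 with a slope in the same fit and for 0 to 1 with 1 library left out. Genes 4-fold apart between iPSC and ESC numbered 2, or 1 with a pseudocount of 50. Genes 4-fold lower in both lines than in MEF numbered 6, or 24 with median-ratio scaling and 19 with quantile normalization. For other RNAs of the domain, 2 rose in the slope, 0 with no filter on low values, 1 among microRNA transcripts alone, 0 on days 3 to 8 alone and 0 to 2 with 1 library left out. There 3 fell, 5 with median-ratio scaling, 7 with quantile normalization and 1 on days 3 to 8 alone. The 3 include mmu-mir-300 and mmu-mir-668, which lie on hairpins of the region. Their step was higher for 2, or 1 among microRNA transcripts alone. It was lower for 1, for 3 with a pseudocount of 50, a mean of at least 100 FPKM, median-ratio scaling or quantile normalization, for 0 without days 7 and 8 or with a slope in the same fit, and for 0 to 3 with 1 library left out. The causes were not tested. Among results for single members, 598 values under alternatives kept their direction and side of the threshold, 23 kept their side with the other sign, neither value being called, 52 were weaker, 14 stronger and 1 reversed. Among members, depth limits Mir1188, Mir544 and Mir453, which rest on 3 or fewer reads in some libraries. No paired analysis was possible because each stage has 1 library.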

Other observations

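MicroRNAs of other imprinted loci were measured in the same libraries. Mir675, which lies in the H19 transcript, was at 11519 FPKM in MEF, 20.3 on day 8, 236 in iPSC and 141 in ESC, and its slope of -1.05 ± 0.09 was called lower (SE, n = 9 libraries, adjusted p = 0.000127 by limma). Mir483, in an intron of Igf2, was at 120719 FPKM in MEF, 291 on day 8, 3982 in iPSC and 715 in ESC, a difference of 2.46 between the lines. Mir335, in Mest, also fell, at 669556 FPKM in MEF and 82441 on day 8, with a slope of -0.43 ± 0.10 (SE, n = 9 libraries, adjusted p = 0.0171 by limma). Mir296 and Mir298, of the Gnas locus, were not called, with slopes of -0.07 (adjusted p = 0.590 by limma) and 0.03 (adjusted p = 0.871). The difference between these loci and the region was not tested.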
